A study of Mus musculus with 6 samples.

Results

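Immediate early genes were followed in the inguinal white adipose tissue (iWAT) of mice in which the long noncoding RNA *Lexis* was deleted in adipocytes. The genes were chosen by name, as a list of 10: *Egr1*, *Nr4a1*, *Jun*, *Junb*, *Fos*, *Fosb*, *Atf3*, *Ier2*, *Ier3* and *Zfp36*. A row of the count table stood for a gene when it carried the gene's symbol, and the row with the highest total was taken where a symbol had several. Of the 10 genes, 8 had a row, 7 had any counts and the same 7 passed the filter on low counts, among 9872 rows that passed it of 37024 rows in all. *Fos* and *Junb* were not analysed here. *Atf3*, a stress-induced transcription factor, had 2 rows that were listed at 0 in all 6 libraries. The 5 rows of *Tbp* together held only between 2 and 5 counts per library and the 2 rows of *Ppia* between 0 and 1, although every cell uses both genes, so that *Atf3* can only be said to be listed at 0. *Hprt*, another gene that every cell uses, had 1 row with between 3218 and 4581 counts.

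The study sequenced bulk RNA from the iWAT of mice that had eaten a Western diet for 12 weeks, giving 3 *Lexis*-AdWT and 3 *Lexis*-AdKO libraries that it calls biological replicates. All mice were on a C57BL/6 background. The *Lexis*-AdKO mice came from crossing a floxed *Lexis* allele with *Adipoq*-cre, a Cre driven by the adiponectin promoter that acts in adipocytes, and the *Lexis*-AdWT mice were their littermate controls. Endothelial, immune, stromal and nerve-sheath cells of a *Lexis*-AdKO depot therefore keep the gene, and bulk RNA holds all of these cells. Ages and handling before lysis are not given by the labels for the 6 libraries.

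Immediate early genes are transcribed within minutes of a stimulus because their promoters are occupied by factors, among them serum response factor and CREB, that kinases switch on without new protein synthesis. Many of the products are transcription factors that start a later wave of transcription, and others, such as the RNA-binding protein encoded by *Zfp36*, end it. Dissection, warming and loss of blood flow are all known to induce these genes in excised tissue, and in adipose tissue adrenergic and insulin signals do so as well. The question put to these data was how far the genes varied from library to library, and whether the groups differed.

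The promoters of 4 genes are shown, those with counts in these libraries and a match to a motif through which early genes are classically induced. Each is the 250 bases before the RefSeq start in GRCm38.p6, written 5′ to 3′ on the gene's strand, with motif matches in capitals. The motifs searched on both strands were the cAMP response element (CRE) TGACGTCA, the CRE-like TGACNTCA, which includes it, the CRE core TGACG, which lies within the full CRE, the AP-1 site TGANTCA, the site GCGGGGGCG bound by the EGR family, the TATA box TATAAA and the CArG box of serum response factor. Of 32817 promoters of that length, 1.55% held the CRE, 7.49% the CRE-like motif, 17.7% the CRE core, 6.75% the AP-1 site, 2.57% the EGR site, 12.4% the TATA box and 1.47% the CArG box. *Fosb* (chr7:19310046-19310295, minus strand) had a CRE core from 60 to 56 bases before the start and an EGR site from 50 to 42. *Jun* (chr4:95052223-95052472, minus strand) had a CRE-like motif from 45 to 38 bases before the start. *Nr4a1* (chr15:101266596-101266845, plus strand) had 4 CRE cores, read on the other strand, and an EGR site, also on the other strand, from 60 to 52. *Zfp36* (chr7:28379229-28379478, minus strand) had an EGR site from 105 to 97 and a CArG box from 58 to 49.
Fosb: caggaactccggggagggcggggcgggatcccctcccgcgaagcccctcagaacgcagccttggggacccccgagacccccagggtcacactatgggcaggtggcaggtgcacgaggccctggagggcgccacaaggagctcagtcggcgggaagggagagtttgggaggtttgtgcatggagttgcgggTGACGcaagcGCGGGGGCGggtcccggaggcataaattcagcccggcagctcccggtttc
Jun: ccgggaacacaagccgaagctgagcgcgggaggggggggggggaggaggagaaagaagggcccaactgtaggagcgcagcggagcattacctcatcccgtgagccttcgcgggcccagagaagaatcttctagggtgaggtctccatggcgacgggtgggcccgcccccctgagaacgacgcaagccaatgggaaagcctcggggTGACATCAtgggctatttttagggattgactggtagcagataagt
Nr4a1: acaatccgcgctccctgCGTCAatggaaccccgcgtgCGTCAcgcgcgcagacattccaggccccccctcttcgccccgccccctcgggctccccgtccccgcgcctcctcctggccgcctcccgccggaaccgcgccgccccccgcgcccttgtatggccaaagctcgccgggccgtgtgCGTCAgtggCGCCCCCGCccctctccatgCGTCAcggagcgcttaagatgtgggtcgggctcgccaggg
Zfp36: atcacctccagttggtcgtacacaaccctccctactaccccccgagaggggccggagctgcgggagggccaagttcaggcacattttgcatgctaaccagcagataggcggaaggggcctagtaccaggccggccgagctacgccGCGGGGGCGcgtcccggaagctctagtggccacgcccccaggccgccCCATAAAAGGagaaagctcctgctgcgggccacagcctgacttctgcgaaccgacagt

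A promoter entry was matched for 8 of the 10 genes. *Egr1* and *Ier2* had none, so their promoters were not searched for motifs. Of the genes without counts or a row, *Fos* had 2 CRE cores, from 129 to 125 and from 66 to 62 bases before the start, and a TATA box from 33 to 28. *Junb* had a CRE core from 106 to 102 and *Atf3* one from 7 to 3. In *Ier3* none of these letters occurred in the same window. A match describes the letters of the reference genome only, and no binding or activity was measured in these libraries.

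The depth of the 6 libraries ranged from 14470542 to 17882713 counts, so that a count of 0 allows up to 3 counts, or between 0.179 and 0.206 CPM (each gene's counts scaled to a common library size), for counting error only. The targeted lincRNA gene, *4930412L05Rik*, had more counts in AdKO (21, 11 and 13) than in AdWT (8, 9 and 8). Of the study's 16 imaging probes against *Lexis*, 9 matched the chromosome 4 sequence, and these 9 lay within this gene. The study reports, by qRT-PCR, that Cre removed *Lexis* expression from adipose tissues. AdKO and AdWT stand here for what the libraries are labelled, since the target's counts give no check of the labels. Of 7 adipocyte markers, 1 had no row and 1 was listed at 0, and the other 5 summed to between 41390 and 54660 CPM per library. The 6 skeletal muscle markers with a row summed to 32.9, 174 and 17.9 CPM in AdWT and 6.05, 4.48 and 5.35 CPM in AdKO. This sum was lower in every AdKO library than in every AdWT library, and AdWT 2 was highest. Of these 6 markers, 0 passed after adjustment in edgeR's quasi-likelihood test, and the groups overlapped for *Myh1* but not for the other 5. The 5 epithelial markers with a row summed to 1.44, 0.96 and 20.3 CPM in AdWT and 0.89, 1.12 and 47.95 CPM in AdKO. The part of muscle and epithelial RNA in the results below was not tested. In bulk tissue, fewer cells of a type and less RNA per cell cannot be told apart.

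All 7 genes with counts were present in every library. On a scale per kilobase of exon (RPKM, from GENCODE exons in mm9), which allows levels of different genes to be set side by side, *Zfp36* was the most abundant with a mean of 152 RPKM and a range of 125 to 175 over the 6 libraries. *Jun* followed with a mean of 75.5 RPKM (63.2 to 90.2). *Ier2* at 25.8 RPKM (23.3 to 28.7) and *Egr1* at 20.6 RPKM (15.5 to 32.2) came next. These neighbours overlapped in range, and so did *Ier3* at 8.79 RPKM (6.87 to 11.7) and *Nr4a1* at 7.77 RPKM (6.26 to 8.87). *Fosb* was lowest with a mean of 1.91 RPKM (0.82 to 2.90), below every library's value for the other 6 genes.

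No gene of the 7 passed an adjusted *p* of 0.05 for AdKO against AdWT, by edgeR's quasi-likelihood test and a Benjamini-Hochberg correction over all rows, and neither did any other row, a background of 0%. At an unadjusted *p* under 0.05, 1 of the 7 genes passed, *Jun*, against 566 of the 9872 rows, or 5.73% (2.98% lower and 2.76% higher in AdKO). DESeq2 called 0 of the 7 genes and 27 of the 6891 rows to which it gave an adjusted *p*, or 0.392%. The groups did not overlap for 1 of the 7 genes, again *Jun*, which lay lower in AdKO. Over all rows 11.9% did not overlap, 5.72% with AdKO lower and 6.16% with AdKO higher. Of the 7 fold changes, 5 were above 0 and 2 below. Their median was 0.08 on the log2 scale, beside 0.01 over all rows, of which 51.7% were above 0.

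**Figure D1:**
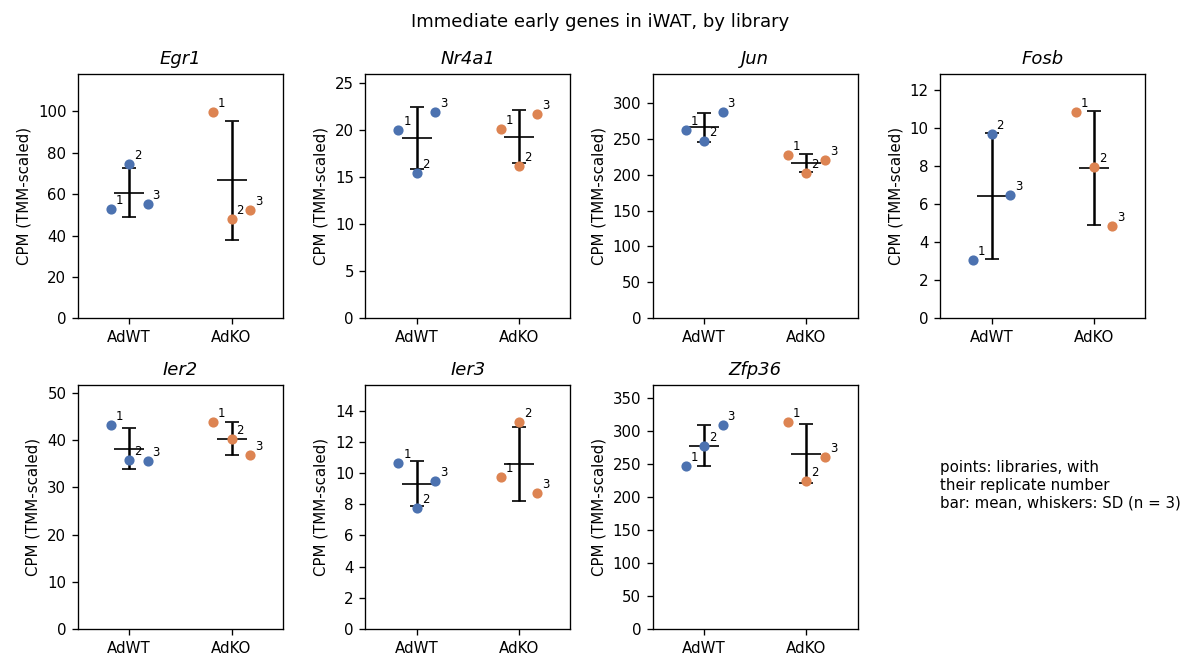
Levels of the 7 immediate early genes with counts, in TMM-scaled CPM on linear axes that start at 0, with 1 panel per gene. Points are libraries with their replicate number, the wide bar is the group mean and the whiskers are the SD (n = 3). *Jun* is the gene whose groups do not overlap, while AdKO 1 stands above the other libraries for *Egr1*.

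*Jun* encodes a basic leucine zipper (bZIP) protein that forms the AP-1 transcription factor with itself or with a FOS protein. It is a gene of a single exon in mm9 (ENSMUSG00000052684.3, chr4:94715725-94718913, minus strand). It measured 262, 247 and 288 CPM in AdWT, from 4009, 4126 and 4298 counts, and 227, 202 and 220 CPM in AdKO, from 3297, 3060 and 3659 counts. Every AdKO library lay below every AdWT library. The means were 266 ± 20.7 CPM in AdWT and 216 ± 13.0 CPM in AdKO (SD, n = 3), a log2 fold change of -0.30 (SE 0.0828, 95% interval -0.49 to -0.10) or a ratio of 0.814. The unadjusted *p* was 0.00803 and the adjusted *p* 0.847 (edgeR quasi-likelihood test, Benjamini-Hochberg), and 90 rows had a *p* as small or smaller. An exact permutation test on log2 CPM (two-sided) gave *p* = 0.1, the smallest that 3 libraries against 3 allow. With each of the 14 alternatives the log2 fold change stayed between -0.35 and -0.24 and the unadjusted *p* stayed under 0.05, while the adjusted *p* lay between 0.392 and 0.998.

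The summed level of the adipocyte markers was also lower in every AdKO library than in every AdWT library. The sum of the 5 that were tested was 46200, 50310 and 54660 CPM in AdWT and 42060, 41510 and 41390 CPM in AdKO. The part of adipocyte content, and that of the muscle RNA given above, in the level of *Jun* was not tested. Most of this sum was *Fabp4*, at 31870, 33710 and 35050 CPM in AdWT and 28850, 29960 and 27210 CPM in AdKO. *Fabp4* and leptin (*Lep*), 2 of the 5, were lower in every AdKO library than in every AdWT library, as for 5.72% of all rows. The groups overlapped for *Adipoq*, *Lipe* and *Plin1*, and *Plin1* had a log2 fold change of 0.10. None of the 5 passed after adjustment in edgeR, and they are named here after their values were seen.

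*Fosb*, a FOS-family bZIP protein that binds DNA together with a partner such as a JUN protein, had the largest ratio and the largest SD between libraries of the 7 genes. It lies on chr7:19888070-19895394 in mm9 (minus strand, ENSMUSG00000003545.2). Its level was 3.08, 9.68 and 6.49 CPM in AdWT, from 47, 162 and 97 counts. In AdKO it was 10.9, 7.97 and 4.87 CPM, from 158, 121 and 81 counts. AdKO 1 was highest and AdWT 1 lowest, 3.53-fold apart, and the groups were interleaved along the whole range. The means of 6.42 ± 3.31 CPM in AdWT and 7.9 ± 3.0 CPM in AdKO (SD, n = 3) differed by less than the spread between replicates. The log2 fold change was 0.29 (SE 0.436, 95% interval -0.72 to 1.31, adjusted *p* = 0.906 from edgeR). On the linear scale the interval runs from a ratio of 0.605 to one of 2.49, so neither the direction nor the size of a change was settled. What size of change could be detected was not tested. Without AdWT 1 the log2 fold change was -0.038, without AdWT 2 it was 0.72, and without AdKO 1 it was -0.0035.

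*Egr1* encodes a zinc-finger transcription factor that binds GC-rich sites such as the one capitalized in the promoters of *Fosb*, *Nr4a1* and *Zfp36*. It lies on chr18:35020861-35024638 in mm9 (plus strand, ENSMUSG00000038418.6). The AdWT libraries measured 52.7, 74.4 and 55.2 CPM, from 806, 1244 and 825 counts. The AdKO libraries measured 99.9, 48.0 and 52.6 CPM, from 1453, 728 and 875 counts. Both the highest value and the lowest, 2.08-fold apart, were in AdKO, with AdKO 1 above all other libraries and AdWT 2 next. The means were 60.8 ± 11.8 CPM and 66.8 ± 28.7 CPM (SD, n = 3), a log2 fold change of 0.14 (SE 0.284, 95% interval -0.53 to 0.80, adjusted *p* = 0.935 from edgeR). Leaving out AdKO 1 turned it to -0.27, and leaving out AdKO 2 gave 0.32.

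*Nr4a1* encodes NUR77, an orphan nuclear receptor induced by adrenergic signals in fat and muscle. It lies on chr15:101097277-101105223 in mm9 (plus strand, ENSMUSG00000023034.6). Its level was 20.0, 15.5 and 22.0 CPM in AdWT and 20.1, 16.1 and 21.7 CPM in AdKO. The 2 groups covered nearly the same range, with replicate 2 lowest in both. The means were 19.1 ± 3.31 CPM and 19.3 ± 2.86 CPM (SD, n = 3), and the log2 fold change was 0.01 (SE 0.170, 95% interval -0.38 to 0.41, adjusted *p* = 0.990 from edgeR). Its sign changed under 4 of the 14 alternatives.

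*Ier2* encodes a small nuclear protein induced by growth factors. It lies on chr8:87185230-87186751 in mm9 (minus strand, ENSMUSG00000053560.4). It measured 43.2, 35.8 and 35.5 CPM in AdWT and 43.7, 40.3 and 36.8 CPM in AdKO. Its highest library, AdKO 1, and its lowest, AdWT 3, were 1.23-fold apart, the smallest such ratio of the 7 genes. The log2 fold change was 0.08 (SE 0.112, 95% interval -0.19 to 0.34, adjusted *p* = 0.905 from edgeR), with means of 38.2 ± 4.36 CPM and 40.3 ± 3.47 CPM (SD, n = 3).

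*Ier3* encodes a stress-inducible regulator of cell survival. It lies on chr17:35958629-35959868 in mm9 (plus strand, ENSMUSG00000003541.6). It measured 10.7, 7.77 and 9.50 CPM in AdWT and 9.76, 13.2 and 8.71 CPM in AdKO. AdKO 2, which was lowest for *Jun*, *Egr1* and *Zfp36*, was here the highest library. The log2 fold change was 0.18 (SE 0.204, 95% interval -0.29 to 0.66, adjusted *p* = 0.884 from edgeR), and it was -0.02 without AdKO 2.

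*Zfp36* encodes tristetraprolin, which binds AU-rich elements and speeds the decay of early and inflammatory mRNAs. It lies on chr7:29161803-29164274 in mm9 (minus strand, ENSMUSG00000044786.5). It measured 248, 278 and 310 CPM in AdWT, from 3784, 4646 and 4630 counts. In AdKO it measured 314, 224 and 261 CPM, from 4562, 3406 and 4340 counts. Both extremes were again AdKO 1 and AdKO 2. The means were 278 ± 31.1 CPM and 266 ± 44.9 CPM (SD, n = 3), and the log2 fold change was -0.06 (SE 0.136, 95% interval -0.38 to 0.25, adjusted *p* = 0.936 from edgeR). Without AdKO 2 the value was 0.04.

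**Figure D2:**
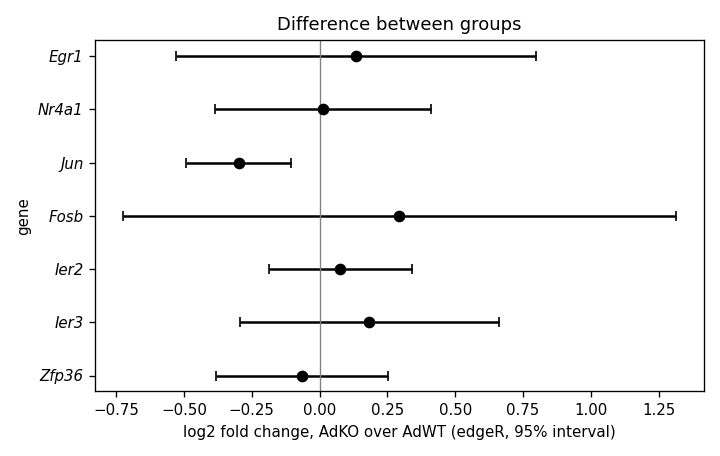
Log2 fold change of each of the 7 genes, AdKO over AdWT, with its 95% interval from edgeR's quasi-likelihood fit (n = 3 libraries per group). The vertical line marks 0. The interval of *Jun*, from -0.49 to -0.10, lies below 0 before adjustment, and the other 6 intervals span 0, that of *Fosb* being the widest.

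The 7 genes differed widely in how much they varied within groups. The SD of log2 CPM around the group means was 0.66 for *Fosb* and 0.45 for *Egr1*, larger than in 97.1% and 90.4% of all rows tested. It was 0.26 for *Ier3*, 0.24 for *Nr4a1* and 0.21 for *Zfp36*. *Ier2* at 0.14 and *Jun* at 0.10 were below the median of all rows, which was 0.20. The median over the 7 genes was 0.24, and that over 18 other early response genes was 0.20. The median of the 7 genes was close to that of all rows, with *Fosb* and *Egr1* above the 90th percentile of 0.44. That comparison took rows of every level together, and counting error adds more spread at low counts. Relative to the SD from counting error alone, the SD was 9.74-fold for *Egr1*, 9.26-fold for *Zfp36*, 4.85-fold for *Fosb* and 4.25-fold for *Jun*. It was 2.815-fold for *Nr4a1*, 2.42-fold for *Ier2* and 2.25-fold for *Ier3*. The mean count per library was 111 for *Fosb*, the lowest of the 7 genes, and 989 for *Egr1*.

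**Figure D3:**
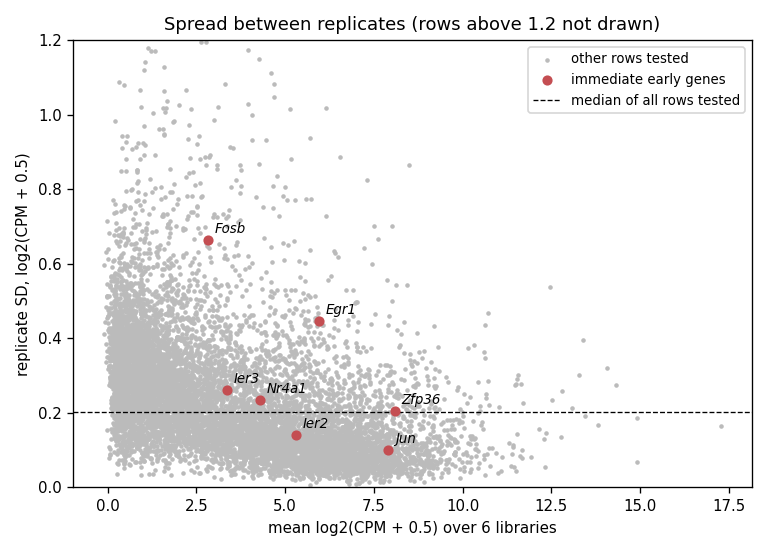
Replicate SD of each row tested (SD of log2(CPM + 0.5) around the group means) against its mean log2(CPM + 0.5) over the 6 libraries. Grey points are all other rows, red points the 7 immediate early genes, the dashed line is the median of all rows (0.20), and 69 rows above 1.2 are not drawn. *Fosb* and *Egr1* sit above most rows of their level and *Jun* lies below the dashed line.

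To compare libraries, each gene's log2 CPM was set against its mean over the 6 libraries and these deviations were averaged over the 7 genes. The averages were -0.13, 0.02 and 0.04 in AdWT and 0.25, -0.06 and -0.12 in AdKO. AdKO 1 had the highest average, was the highest library for 4 of the 7 genes (*Egr1*, *Fosb*, *Ier2* and *Zfp36*) and the lowest for none. Over all rows, 14.2% were highest in AdKO 1. AdKO 2 was lowest for 3 genes (*Jun*, *Egr1* and *Zfp36*) and highest for 1, where 19.2% of all rows were lowest and 18% highest in it. With *Fosb* left out, a choice made after the data were seen, AdKO 1 remained highest at 0.18, AdWT 1 moved to 0.02 and AdKO 2 became lowest at -0.11. No library is replicated, so these values carry no test. The low average of AdWT 1 came from *Fosb*, for which it was the lowest library, while it lay above the mean for 4 of the 7 genes. AdKO 3, whose average was nearly as low, lay above the mean for 1 of the 7 and was the lowest library for none. The order of the libraries changed from gene to gene.

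The plain sum of the 7 genes, which *Jun* and *Zfp36* dominate, was 640, 667 and 726 CPM in AdWT and 725, 552 and 605 CPM in AdKO. By this measure AdWT 3 and AdKO 1 were highest and AdKO 2 was lowest. Whether handling at dissection differed between the mice was not tested.

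A wider list of 31 other early response genes, of which 18 were tested, was set beside these. In it, 8 genes had fold changes above 0 and 10 below (median log2 fold change -0.01), and 0 passed the adjusted threshold in edgeR's test. At an unadjusted *p* under 0.05, 2 were higher in AdKO and 0 lower, beside 2.76% and 2.98% of all rows. *Klf4*, a Krüppel-like transcription factor, was 201, 189 and 187 CPM in AdWT and 215, 211 and 214 CPM in AdKO, a log2 fold change of 0.15 (SE 0.0620, adjusted *p* = 0.851). *Socs3*, the feedback inhibitor of cytokine receptors, was 14.9, 12.6 and 11.1 CPM in AdWT and 17.6, 18.8 and 14.6 CPM in AdKO, a log2 fold change of 0.40 (SE 0.158, adjusted *p* = 0.851). The AdKO values lay above the AdWT values for *Klf4*, as for 6.16% of all rows, and overlapped them for *Socs3*. *Fosl2*, a FOS-family gene named after its values were seen, did not overlap either and was lower in AdKO, as for 5.72% of all rows. Its log2 fold change was -0.25 (SE 0.149, adjusted *p* = 0.853 from edgeR). In all, 2 of the 18 genes did not overlap, beside 11.9% of all rows.

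AdKO 1, the library with the highest average deviation of the immediate early genes, averaged -0.0018 on the log2 scale in this list. Here AdKO 3 and AdWT 1 had the highest averages at 0.10 each. By the median deviation AdKO 1 stood at 0.07, as did AdWT 1, and AdKO 3 at 0.05. AdKO 1 and AdWT 3 were each the highest library for 5 of the 18 genes, so that its place depended on the measure. AdKO 2 had the lowest average at -0.15 and was the lowest library for 8 of the 18 genes. By the median deviation AdWT 2 was lowest at -0.07, with AdKO 2 at -0.06. AdKO 2 and AdWT 2 were each below the gene mean for 14 of the 18. The 8 genes, named after their values were seen, were *Gadd45g*, *Cyr61*, *Ctgf*, *Dusp1*, *Rhob*, *Klf2*, *Sik1* and *Klf6*. *Gadd45g*, a stress sensor of the GADD45 family, stood at 85.4 CPM in AdKO 2 and between 145 and 236 CPM in the other 5 libraries. *Cyr61*, a matricellular target of YAP and serum response factor, stood at 361 CPM beside 483 to 727 CPM. *Dusp1*, the phosphatase that switches off MAP kinases, stood at 190 CPM beside 259 to 311 CPM. With the 7 immediate early genes added, AdKO 2 was lowest for 11 of 25 genes, where 19.2% of all rows were lowest in that library. The count was 10 with upper quartile or library size scaling, and 12 of 31 genes when rows needed only 1 count in any library. Of 7 macrophage markers, 4 had a row, 1 of them at 0, and the other 3 had their highest sum in AdKO 2 (787 CPM, beside 358 to 775 CPM). *Mrc1* gave most of it, at 496 CPM in AdKO 2, and *Csf1r* was 1.58 CPM there. *Lyz2* was 289 CPM in AdKO 2, below the 357 CPM of AdWT 1 and the 356 CPM of AdKO 3. The adipocyte sum of AdKO 2, 41510 CPM, was close to those of the other AdKO libraries. The part of macrophage or adipocyte content in these values was not tested.

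**Figure D4:**
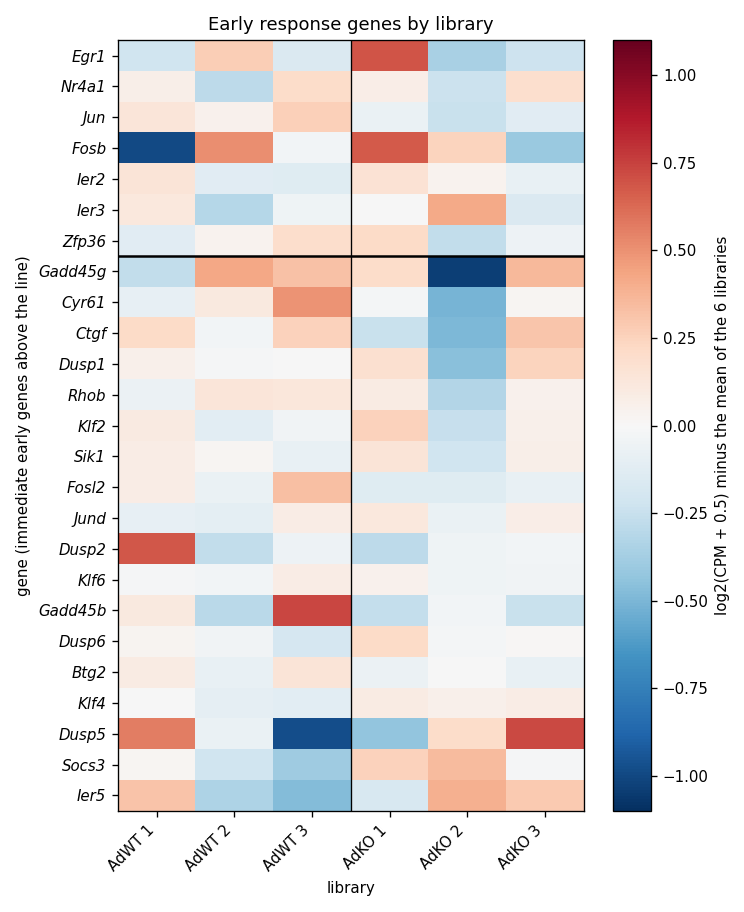
Deviation of log2(CPM + 0.5) from the mean of the 6 libraries for the 7 immediate early genes (above the heavy line) and 18 other early response genes (below it), by library, with the colour scale from blue (lower) to red (higher). AdKO 2 is the lowest library for 11 of the 25 genes, and AdKO 1 is red for *Egr1* and *Fosb*.

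Kinases and factors that induce the early genes came next. Of 22 listed, 13 were tested, 8 with fold changes above 0 and 5 below (median log2 fold change 0.07), and 0 passed after adjustment in edgeR. At an unadjusted *p* under 0.05, 1 was higher in AdKO and 0 lower, beside 2.76% and 2.98% of all rows. It was *Atf1*, a CREB-family factor that binds the CRE, with 55.2, 54.5 and 54.0 CPM in AdWT and 60.2, 61.3 and 60.3 CPM in AdKO (log2 fold change 0.15, SE 0.0641, adjusted *p* = 0.851 from edgeR). The AdKO libraries all lay above the AdWT libraries, as for 6.16% of all rows.

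Among 8 other bZIP proteins, 6 were tested, 4 above 0 and 2 below (median log2 fold change 0.09), and 0 passed at either threshold in edgeR's test. *Mafk*, a small MAF protein, had the highest mean at 112 CPM, followed by *Ddit3*, the stress factor CHOP, at 41.6 CPM. The largest fold changes were those of *Batf3* (log2 fold change 0.35, SE 0.295) and *Batf* (0.18, SE 0.248), both under 4 CPM in every library, with groups that overlapped.

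The *Zfp36* family and transcripts that tristetraprolin binds formed a list of 13 genes, 7 of them tested. Here 6 had fold changes above 0 and 1 below (median log2 fold change 0.17), and 0 passed after adjustment in edgeR. At an unadjusted *p* under 0.05, 1 was higher in AdKO and 0 lower, where 2.76% and 2.98% of all rows were. It was *Ccl2*, a chemokine that draws monocytes, with 13.8, 12.7 and 8.43 CPM in AdWT and 13.2, 17.4 and 20.8 CPM in AdKO (log2 fold change 0.56, SE 0.233, adjusted *p* = 0.851 from edgeR). Its groups overlapped at AdKO 1. The macrophage markers, a cell type that responds to this chemokine, summed to 752, 570 and 358 CPM in AdWT and to 634, 787 and 775 CPM in AdKO, and their part in the level of *Ccl2* was not tested.

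Stress genes outside the immediate early class gave a further view of the tissue. Of 13 heat shock genes, 10 were tested, 6 above 0 and 4 below (median log2 fold change 0.01), and 0 passed at an unadjusted or adjusted *p* under 0.05 in edgeR. *Hsp90ab1*, a cytosolic chaperone, averaged 1599 CPM (log2 fold change 0.01), and *Bag3*, a co-chaperone that rises with heat shock, averaged 287 CPM (log2 fold change 0.01). *Bag3* stayed between 278 and 292 CPM in all 6 libraries. *Hspa8* (log2 fold change -0.44, SE 0.202) and *Hsph1* (-0.30, SE 0.202) had the largest differences, both under 5 CPM in every library. For these 2 of the 10 genes every AdKO library lay below every AdWT library, as for 5.72% of all rows. Genes with near-identical copies, such as *Hspa8* with its pseudogenes, are uncertain in this table, since how shared reads were counted is not given in the sources used here.

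Of 11 hypoxia genes, 7 were tested, 3 above 0 and 4 below (median log2 fold change -0.08), and 0 passed after adjustment in edgeR. At an unadjusted *p* under 0.05, 3 were lower in AdKO and 0 higher, beside 2.98% and 2.76% of all rows. *Egln3*, a prolyl hydroxylase induced by HIF, was 7.39, 11.2 and 8.03 CPM in AdWT and 4.40, 4.55 and 4.87 CPM in AdKO (log2 fold change -0.95, SE 0.198, adjusted *p* = 0.817). *Bnip3*, a mitophagy receptor, was 485, 535 and 533 CPM in AdWT and 474, 404 and 404 CPM in AdKO (log2 fold change -0.28, SE 0.0894, adjusted *p* = 0.851). *Adm*, which encodes the vasodilator adrenomedullin, was 37.7, 29.1 and 44.8 CPM in AdWT and 30.4, 28.4 and 24.9 CPM in AdKO (log2 fold change -0.42, SE 0.165, adjusted *p* = 0.851). For *Egln3* and *Bnip3* every AdKO library lay below every AdWT library, as for *Jun* and for 5.72% of all rows, and for *Adm* the groups overlapped.

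The rows whose log2 CPM was most like the library average of the 7 genes were *Irs1* (Pearson's r = 0.972), *Fuz* (0.970), *Kdm5b* (0.966), *Dexi* (0.958) and *Inhbb* (0.955). The search ran over 5116 rows with a mean log2 CPM of at least 3 and over the same 6 libraries, and 31 rows had an r above 0.9. *Irs1*, the insulin receptor substrate, was 62.6, 77.2 and 85.7 CPM in AdWT and 106, 76.9 and 67.0 CPM in AdKO. Its highest value was in AdKO 1 and its lowest in AdWT 1, as for the average and for *Fosb*, the gene that gave AdWT 1 its low average. With so few libraries and so many rows, the likeness is a description only.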

How the data were processed

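RNA of 6 iWAT libraries was prepared with the KAPA Stranded RNA-Seq Kit and sequenced on an Illumina HiSeq. HISAT2 was the authors' aligner, with mm9 as the genome, and the deposited values are raw counts per gene row that were not normalized. The counting tool and its annotation are not given in the sources used here. Every column belonged to a sample (0 did not).

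Counts were filtered by edgeR's filterByExpr, scaled by TMM and compared by its quasi-likelihood test (R 4.3.3, edgeR 4.0.16), which was first tested on simulated data. Benjamini-Hochberg adjustment ran over 9872 rows. Standard errors (SE) were obtained from the log2 fold change and the F statistic. CPM values are counts divided by the TMM-scaled library size. Log2 CPM had 0.5 added. RPKM used merged exons of GENCODE vM1 in NCBIM37 (mm9). Promoters came from RefSeq (GRCm38.p6) and were not joined to mm9 coordinates. Python 3.11.15, pandas 2.3.3, numpy 2.4.6 and matplotlib 3.10.9 did the rest.

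The genes, the lists and the tests were chosen with earlier results of these data known. Named were all 10 genes, and of each list the genes at an unadjusted *p* under 0.05, otherwise the 2 of highest mean CPM and the 2 of largest change, and the 5 rows most like the library average. Deviations of same-numbered libraries correlated at -0.102, -0.116 and 0.352 for numbers 1, 2 and 3. Since not every pair correlated positively, the numbers were not taken to pair the samples. No pair of libraries was a duplicate. The p-values measure the spread between these samples. Alternatives were DESeq2 1.42.0, other scalings and filters, summed rows, a replicate block and each library left out. The other assays of the study were not used here.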

Additional observations from a re-analysis of the deposited data

How the results depend on the processing

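Under 14 alternatives, 0 of the 7 immediate early genes passed the adjusted threshold, as before, and *Jun* kept its direction. Values near 0 that carry no test, such as library averages and list medians, also changed sign under some alternatives. The number of rows called went from 0 to 27 with DESeq2, to 1 when rows needed only 1 count in any library, and lay between 0 and 1 with each library left out (1 without AdKO 3). The cause was not tested. Rows at an unadjusted *p* under 0.05 ran from 329 without AdWT 2 to 1208 without AdWT 1.

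The log2 fold changes of 5 of the 7 genes reversed under at least 1 alternative. *Nr4a1* went to -0.00031 with DESeq2, -0.12 without AdWT 2, -0.02 without AdKO 1 and -0.08 without AdKO 3. *Fosb* went to -0.038 without AdWT 1 and -0.0035 without AdKO 1. *Egr1* went to -0.27 without AdKO 1 and *Ier3* to -0.018 without AdKO 2. *Zfp36* went to 0.011 without AdWT 3 and 0.038 without AdKO 2. With each library left out, the ranges were -0.04 to 0.72 for *Fosb*, -0.27 to 0.32 for *Egr1*, 0.01 to 0.18 for *Ier2*, -0.02 to 0.31 for *Ier3*, -0.12 to 0.12 for *Nr4a1*, -0.20 to 0.04 for *Zfp36* and -0.35 to -0.24 for *Jun*, and the median over the 7 genes ran from -0.02 to 0.14.

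With the replicate number as a block, though the numbers share only a name, 0 rows and 0 of the 7 genes were called, 418 rows had an unadjusted *p* under 0.05 beside 566 without the pairing, and the log2 fold change of *Jun* was -0.30 (adjusted *p* = 0.941, edgeR). Depth sets the limit of 0.179 to 0.206 CPM that a count of 0 allows.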
